A study of Mus musculus with 4 samples.

Results

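Thymic epithelial cells (TECs) carry on their surface several ligands that thymocytes read together with the T cell receptor, and 6 genes for such ligands are described here in mice in which RANK and CD40 signaling was removed singly or together. They are Cd80 and Cd86, the ligands of CD28 and CTLA-4, Cd274 and Pdcd1lg2, which encode PD-L1 and PD-L2, the ligands of PD-1, Icosl, the ligand of ICOS, and Cd83, a membrane protein that protects MHC class II and CD86 from removal by the ubiquitin ligase MARCH8. The genes were matched by symbol in the gene list of the deposited matrices, which held all 6 among 31053 genes, and their unique molecular identifiers (UMIs, 1 per captured mRNA molecule) were summed per class of cells in each library. None of the 6 genes was a marker of a class, but the marker limits were set after their levels per class had been seen.

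The libraries came from EpCAM+ CD45- TER119- cells sorted from thymi of C57BL/6 mice at 6 weeks of age and were made by droplet-based single-cell RNA sequencing. WT-Control mice were wild type and received a control rat IgG, WT-RANKL-Ab mice were wild type and received a neutralizing antibody to RANKL, the ligand of RANK. The wild-type mice were female. Cd40-/- Control and Cd40-/- RANKL-Ab mice were Cd40-deficient on the same background and received the same 2 reagents. The dose was 5 mg/kg under the skin at 4 weeks of age, which left 2 weeks until the analysis. Each condition was 1 library of 3 pooled mice, so there was no replicate and no test between conditions, and every comparison below is between 4 libraries. Levels are UMIs per 1000000 UMIs of the class (CPM) with exact Poisson 95% intervals, and ratios are log2 with exact 95% intervals from the 2 counts. These intervals cover counting error only and leave out differences between mice. The 3 comparisons with WT-Control share that library.

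The libraries held 10218, 7164, 8591 and 2082 cells after filtering and 95277834, 48640841, 66295255 and 19153685 UMIs, for WT-Control, then WT-RANKL-Ab, then Cd40-/- Control and last Cd40-/- RANKL-Ab. This order is used wherever 4 values follow each other. Between 83.2% and 92.3% of the cells of a library were TEC-gated, that is, they passed a marker gate of a TEC class. Cd40, the deleted gene, was at 110 and 28.8 CPM in the wild-type libraries and at 5.75 and 4.75 CPM in the Cd40-/- libraries. The 2 Cd40-/- libraries shared 205 cell barcodes, against 17 to 116 in the other pairs. The shared barcodes had a median of 723 UMIs in Cd40-/- Control and were deep, with 24073, in Cd40-/- RANKL-Ab, and 93 of the cTEC-like cells of Cd40-/- Control were among them. Leaving them out of Cd40-/- Control left every ratio of a member within its interval, and values without them in both libraries are given where they moved.

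CD28 ligands give developing T cells the second signal that goes with antigen recognition, and in the thymic medulla CD80 and CD86 are known for their part in the formation of regulatory T cells. PD-L1 and PD-L2 send an inhibitory signal through PD-1, and ICOSL supports regulatory T cells through ICOS. CD83 in cortical TECs is known to be needed for the selection of CD4 T cells, because it keeps MHC class II on the cell surface. RANK and CD40 both activate NF-kB, and medullary TECs (mTECs) depend on these receptors for their maturation towards cells that express Aire, the regulator of tissue-restricted antigens.

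The genes lie on 4 chromosomes (GRCm38, GENCODE M21). Cd80 is at chr16:38455561-38496335 on the forward strand and Cd86 at chr16:36603869-36666081 on the reverse strand. Cd274, at chr19:29367455-29388095, and Pdcd1lg2, at chr19:29410919-29471161, are neighbours on the forward strand with starts 43.5 kb apart. Cd274 starts 65 bases from Plgrkt, which runs the other way. Icosl, at chr10:78069302-78083913 on the forward strand, starts 25.7 kb from Aire, which lies on the reverse strand. Cd83 is at chr13:43784775-43803132 on the forward strand.

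Promoter windows of 300 bases, from 250 before to 50 after a RefSeq start (GRCm38.p6), were found for 4 of the 6 genes. They are shown because the signals that were blocked or lost here activate NF-kB, and Cd86 and Cd83 are not shown. Capitals mark the matches found among 4 searched motifs, on either strand. The window of Cd80 is chr16:38458683-38458982 and that of Cd274 chr19:29367188-29367487, and the former lies inside the GENCODE gene. The window of Pdcd1lg2 is chr19:29410669-29410968 and that of Icosl chr10:78069118-78069417.
Cd80: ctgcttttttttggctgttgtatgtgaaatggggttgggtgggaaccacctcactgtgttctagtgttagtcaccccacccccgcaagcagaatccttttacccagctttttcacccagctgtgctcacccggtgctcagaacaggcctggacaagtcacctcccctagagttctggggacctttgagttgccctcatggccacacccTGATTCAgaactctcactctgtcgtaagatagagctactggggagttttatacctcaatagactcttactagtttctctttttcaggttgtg
Cd274: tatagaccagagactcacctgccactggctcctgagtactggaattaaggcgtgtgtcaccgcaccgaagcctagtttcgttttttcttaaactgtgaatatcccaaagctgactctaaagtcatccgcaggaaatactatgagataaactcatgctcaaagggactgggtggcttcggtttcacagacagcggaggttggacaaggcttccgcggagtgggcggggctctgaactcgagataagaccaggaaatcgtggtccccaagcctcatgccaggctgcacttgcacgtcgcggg
Pdcd1lg2: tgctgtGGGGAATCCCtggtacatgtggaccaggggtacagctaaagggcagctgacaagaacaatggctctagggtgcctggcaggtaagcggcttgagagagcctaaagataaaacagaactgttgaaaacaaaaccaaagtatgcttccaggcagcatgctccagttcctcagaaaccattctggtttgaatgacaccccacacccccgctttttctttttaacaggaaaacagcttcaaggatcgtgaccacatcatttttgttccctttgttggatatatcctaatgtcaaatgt
Icosl: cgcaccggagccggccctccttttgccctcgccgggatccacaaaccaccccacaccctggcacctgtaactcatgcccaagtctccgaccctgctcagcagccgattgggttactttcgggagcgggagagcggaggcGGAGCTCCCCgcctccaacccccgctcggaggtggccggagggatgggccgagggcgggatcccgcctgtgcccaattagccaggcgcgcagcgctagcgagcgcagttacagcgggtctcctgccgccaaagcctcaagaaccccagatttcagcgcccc
An NF-kB motif was matched at -244 in Pdcd1lg2 and at -111 in Icosl, counted from the start, and such a match was in 8.46% of 32841 promoter windows. The AP-1 motif TGANTCA was matched at -42 in Cd80 and was in 7.81% of windows. The window of Cd274 matched none of these 2 motifs, nor the ISRE motif, which 3.44% of windows held, nor the GAS motif TTCNNNGAA, which 8.30% held. ISRE and GAS were matched in none of the other 3 windows. A match describes letters and not binding.

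In WT-Control the 6 ligands were spread over TEC classes in different ways. Cd80 was highest in Aire+ mTEC-like cells, the class gated on Aire, Fezf2, Ubd, Srgn and Csn2, at 96.1 CPM (92.9-99.4). Enterohepatic-like and microfold-like cells, mimetic mTECs that resemble gut and liver or M cells, followed at 62.1 (49.3-77.2) and 60.8 (50.03-73.1), with intervals that overlapped each other. CCL21+ mTEC-like cells, gated on Ccl21a, Krt5 and Krt14, were at 8.15 CPM of Cd80 (7.04-9.40), progenitor-like cells had 0 UMIs and cTEC-like cells 1. Cd86 followed a steeper order. It was at 23.8 CPM in Aire+ cells (22.2-25.4), at 10.3 in microfold-like cells (6.21-16.1) and at 1.24 in CCL21+ cells (0.833-1.79), with 0 UMIs in cTEC-like cells. In the early Aire-lineage class, gated on Hes6, Utf1, Tmem158 and Nkx6-2, the same cells had 54.5 CPM of Cd80 and 0.600 CPM of Cd86.

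Icosl was highest in 2 classes other than Aire+ mTEC-like cells. It was at 124.7 CPM in early Aire-lineage cells (118-132) and at 114.5 in cycling cells low in Ccl21a (108-121), 2 classes whose intervals overlapped. Aire+ cells were below both at 72.5 (69.7-75.3), and cycling Ccl21a-high cells were at 37.5. CCL21+ cells were at 15.2 CPM of Icosl and cTEC-like cells at 4.13.

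Cd274 and Pdcd1lg2 were both found in mTEC classes and parted in cTEC-like cells and in some mimetic mTECs. In enterohepatic-like cells Cd274 was at 37.6 CPM (27.8-49.7) and Pdcd1lg2 at 14.6 (8.77-22.7). In tuft-like cells they were at 22.1 (17.7-27.3) and 13.2 (9.88-17.4). Cd274 was highest in cTEC-like cells, gated on Psmb11, Prss16, Ccl25, Ly75, Tbata and Cxcl12, at 113.5 CPM (93.3-137). Microfold-like cells were at 49.4 (39.7-60.6), Aire+ cells at 34.3 (32.4-36.2) and CCL21+ cells at 26.5 (24.4-28.7). Pdcd1lg2 was at 43.4 CPM in microfold-like cells (34.4-54.0), 39.2 in Aire+ cells (37.2-41.4) and 34.5 in CCL21+ cells (32.1-36.9), and at 7.22 in cTEC-like cells. CCL21+ cells high in Mgp and Gpx3 had more Pdcd1lg2 than those low in them, 38.3 (35.2-41.7) against 28.2 (24.8-31.9).

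Cd83 had its highest level in cTEC-like cells, although more of its UMIs were in Aire+ cells (847) than in cTEC-like cells (505). It was at 521.1 CPM in cTEC-like cells (477-569) and at 24.0 in Aire+ cells (22.4-25.7), and at 2.70 in CCL21+ cells (2.08-3.46). Barcodes with both cTEC and thymocyte RNA, called thymocyte-cTEC complexes, were at 325.5 CPM of Cd83. The plot of levels by class in WT-Control shows these orders side by side.

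**Figure D1:**
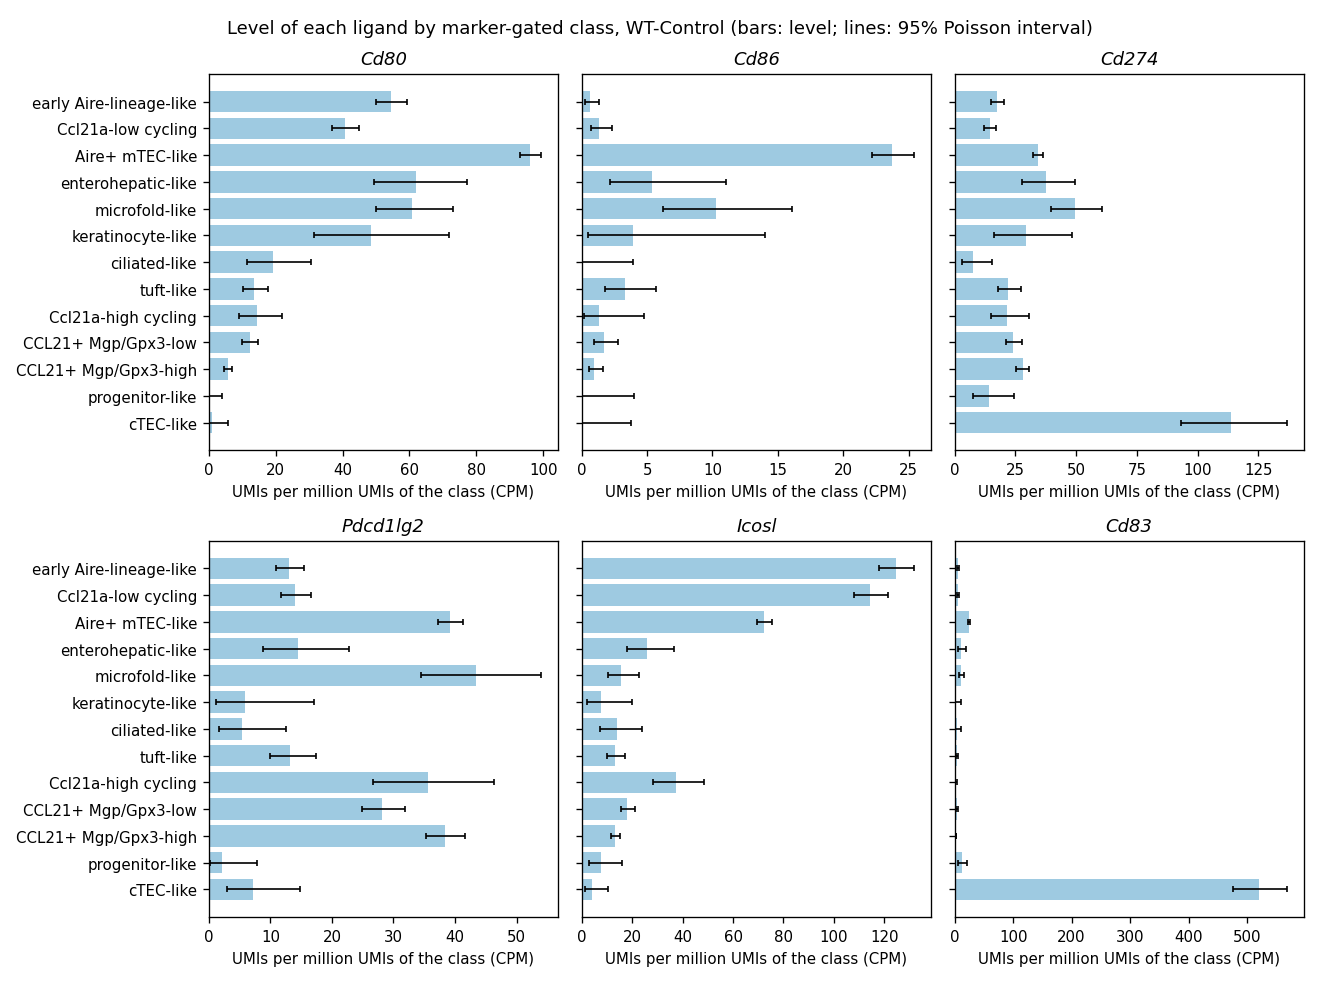
Level of each ligand in 13 marker-gated classes of the WT-Control library, in CPM, as bars with exact Poisson 95% intervals as lines. Cd80 and Cd86 peak in Aire+ mTEC-like cells, Icosl in early Aire-lineage and Ccl21a-low cycling cells, and Cd274 and Cd83 in cTEC-like cells, where Cd83 is at 521.1 CPM.

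Over all TEC-gated cells, each of the 6 ligands differed from WT-Control by more than counting error in each of the other 3 libraries. Cd80 was at 53.0, 7.24, 26.1 and 0.576 CPM, from 4867, 326, 1584 and 10 UMIs. Both single losses had less than WT-Control and the double loss had almost none. The log2 ratios to WT-Control were -2.87 (-3.04 to -2.71), -1.02 (-1.11 to -0.94) and -6.52 (-7.59 to -5.64). Cd86 had the same order, at 10.3, 3.89, 4.40 and 0.0576 CPM. The last value is 1 UMI, with a log2 ratio of -7.48 (-12.79 to -4.999), against 944 UMIs in WT-Control. Without cells with a dendritic cell, B cell or macrophage marker UMI, the ratios of the double loss were -5.71 for Cd80 and -5.75 for Cd86. The intervals of the 2 single losses overlapped for Cd86 and did not for Cd80.

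Icosl was at 60.01, 12.6, 51.2 and 4.55 CPM, with log2 ratios of -2.25 (-2.38 to -2.13), -0.23 (-0.29 to -0.17) and -3.72 (-4.06 to -3.40). Loss of Cd40 alone thus went with a small difference in Icosl, and the antibody with a large one in both genotypes. A mean of per-cell CPM gave -1.56 for Icosl in WT-RANKL-Ab and -3.10 in the double loss. Pdcd1lg2 was at 29.4, 13.7, 36.5 and 5.07 CPM. It was lower than WT-Control with the antibody, at -1.10 (-1.22 to -0.97), higher without Cd40, at 0.31 (0.23 to 0.39), and lowest in the double loss, at -2.53 (-2.86 to -2.23).

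Cd274 and Cd83 were higher, not lower, where the signals were lost. Cd274 was at 28.6, 34.8, 65.5 and 64.8 CPM, with ratios of 0.28 (0.19 to 0.37), 1.20 (1.13 to 1.27) and 1.18 (1.08 to 1.28). The 2 Cd40-/- libraries did not differ in Cd274 beyond counting error, at -0.02 (-0.11 to 0.08). Cd83 was at 20.8, 65.8, 79.0 and 188.3 CPM, with ratios of 1.66 (1.58 to 1.75), 1.93 (1.85 to 2.004) and 3.18 (3.10 to 3.26). Without the barcodes shared by the Cd40-/- libraries, the ratio of the double loss was 0.80 for Cd274 and 2.54 for Cd83. Thymocyte markers moved with these values: the 10 listed genes together were at 77.2, 274.1, 368.3 and 594.4 CPM in TEC-gated cells. All were detected in each library. The TEC-gated cells included 33, 165, 373 and 110 thymocyte-cTEC complexes, and other TECs with thymocyte RNA. Ratios were also taken without the complexes, and without cells with at least 2 thymocyte UMIs. Neither changed the direction of the Cd274 and Cd83 ratios to WT-Control over all TEC-gated cells. The sizes of these ratios under the alternatives are not given, and how much thymocyte RNA added to them was not tested.

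Counted with 1 CPM added, 4 of the 6 ligands (Cd80, Cd86, Pdcd1lg2 and Icosl) were at least 2-fold lower in WT-RANKL-Ab and 1 (Cd83) at least 2-fold higher, where 14.3% and 4.62% of 20283 genes with enough UMIs were. In Cd40-/- Control, 1 ligand (Cd86) was 2-fold lower and 2 (Cd274 and Cd83) were higher, against 1.05% and 2.46% of 20981 genes. In Cd40-/- RANKL-Ab, 4 were lower and 2 higher, against 19.3% and 9.26% of 20090 genes. The median log2 ratio of the 6 was -1.13, 0.04 and -2.87 in these comparisons, and that of all genes -0.02, 0.06 and -0.08. All 6 had enough UMIs to be counted in each comparison.

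**Figure D2:**
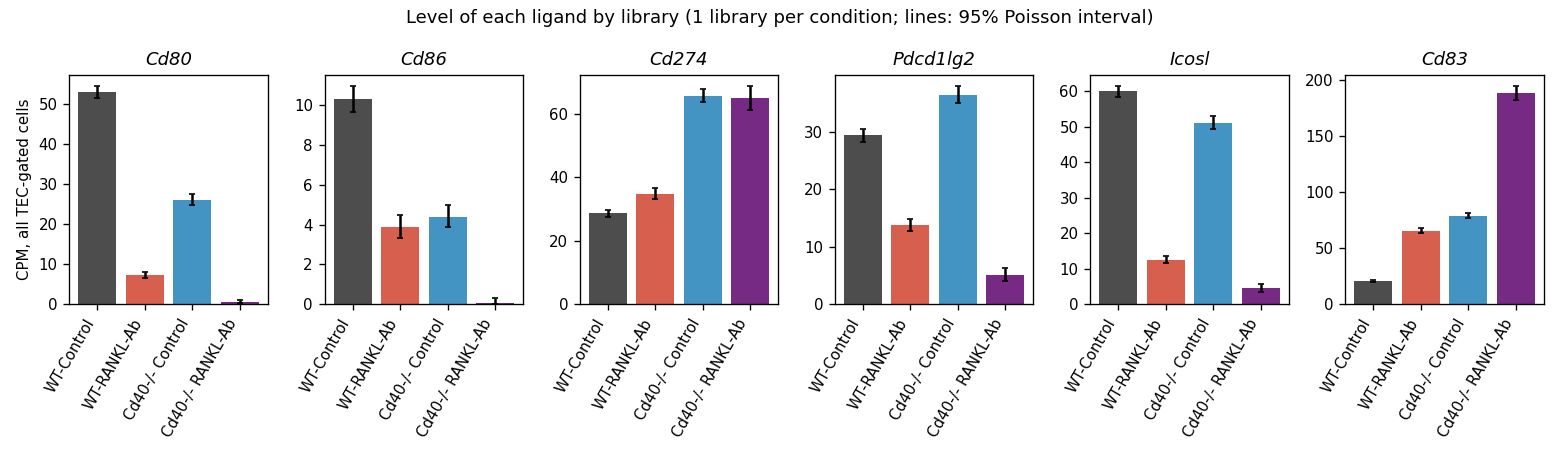
Level of each ligand over all TEC-gated cells by library, in CPM, as bars with exact Poisson 95% intervals as lines, with 1 library per condition. Cd80, Cd86 and Icosl are highest in WT-Control and lowest in Cd40-/- RANKL-Ab, and Cd83 is lowest in WT-Control and highest in Cd40-/- RANKL-Ab, from 20.8 to 188.3 CPM.

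The libraries also differed in which cells they held. Aire+ mTEC-like cells were 3523, 561, 2277 and 8 cells, or 34.5%, 7.83%, 26.5% and 0.384% of a library. The 8 cells of Cd40-/- RANKL-Ab also carried cTEC markers, which goes against their gate, and had 247.6 CPM of Cd83. They are under the minimum of 50 cells and are not compared. cTEC-like cells were 94, 402, 630 and 281. The cells that held a ligand's UMIs shifted with these numbers. Of all Cd80 UMIs, 68.3% (66.9-69.6), 57.3%, 60.1% and 8.33% (0.211-38.5) were in Aire+ cells, the last being 1 of 12 UMIs. Of all Cd86 UMIs, 86.2%, 80.6% and 84.4% were there in the first 3 libraries, with 0 of 4 in the double loss.

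For Cd83, cTEC-like cells and thymocyte-cTEC complexes together held 41.2% of the UMIs in WT-Control (39.0-43.4) and 88.0%, 85.4% and 93.3% in the others. For Cd274 the same cells held 6.22% (5.34-7.20), 41.7%, 36.7% and 68.1%. Of the Pdcd1lg2 UMIs, CCL21+ cells held 29.3%, 34.4%, 40.1% and 77.8% (67.8-85.9 in the last). Icosl UMIs were in CCL21+ cells to 6.29%, 38.2%, 3.15% and 51.8% (40.6-62.9 in the last). Among the few Cd80, Cd86, Pdcd1lg2 and Icosl UMIs of the double loss, those in CCL21+ cells were thus 5 of 12, 0 of 4, 70 of 90 and 43 of 83. Intervals of these shares are exact Clopper-Pearson.

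**Figure D3:**
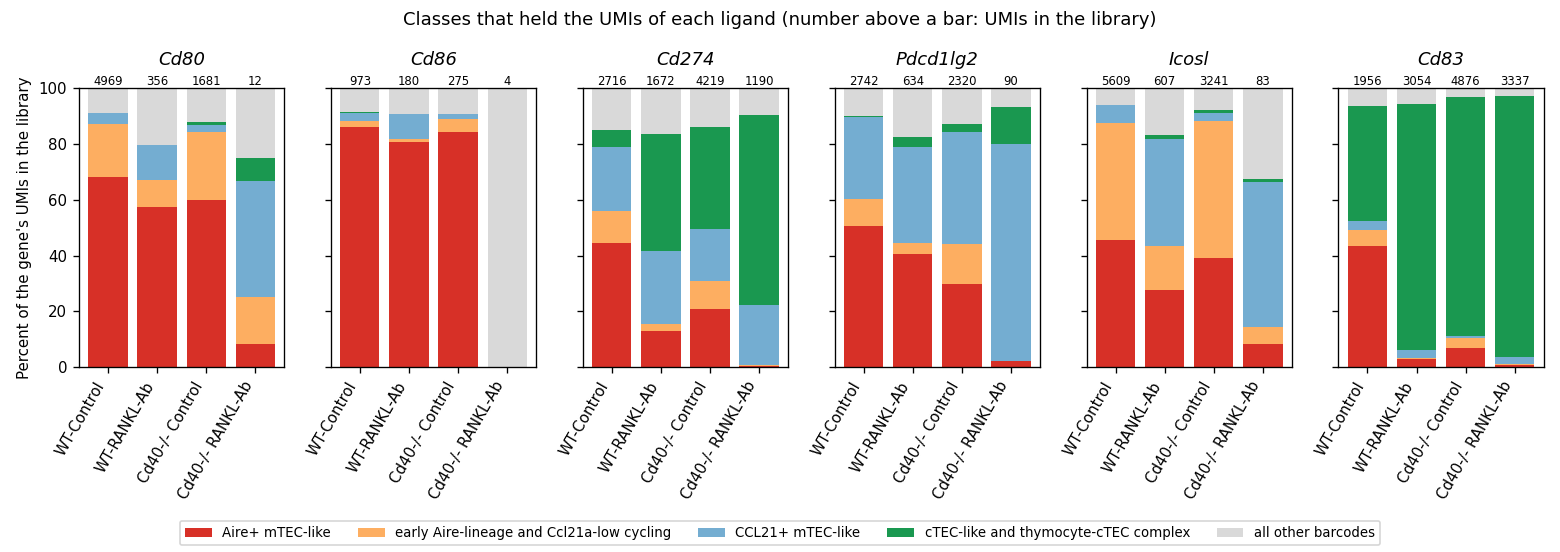
Percent of each ligand's UMIs by class of the barcode that held them, stacked to 100% for each library, with the number of UMIs above the bar and all other barcodes in grey. The share in cTEC-like cells and thymocyte-cTEC complexes is larger in the 3 other libraries than in WT-Control for Cd274 and Cd83, from 41.2% to 93.3% for Cd83 in Cd40-/- RANKL-Ab.

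To set the numbers of cells aside, each library's class levels were weighted by the class shares of WT-Control. For Cd83, the log2 ratio to WT-Control was then 0.17 with the antibody and -0.04 without Cd40, against 1.66 and 1.93 before. These values rest on the main gates, and the ratios of Cd83 within cTEC-like cells depended on the gate, as given below. Cd80 stayed below WT-Control, at -0.60 and -0.75, against -2.87 and -1.02. Cd86 was at 0.99 in WT-RANKL-Ab, against -1.40, and at -0.83 in Cd40-/- Control, so that in WT-RANKL-Ab its direction turned with the weighting. The weighting does not set aside differences between cells within a gate. The Aire+ gate held different cells in WT-RANKL-Ab, as given below, and the part of this in the weighted values was not tested.

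Pdcd1lg2 was at 0.54 in WT-RANKL-Ab, against -1.10, which is also the other direction, and at 0.60 in Cd40-/- Control. Cd274 was at 0.60 and 0.85, and Icosl at -0.68 and -0.09. Classes with under 50 cells were held at their WT-Control level, 6.69% and 1.69% of the WT-Control UMIs. In Cd40-/- RANKL-Ab such classes made up 68.3% of the WT-Control UMIs, so only the classes it held in number were compared. Over those, the ratios were -3.37 for Cd80, -6.31 for Cd86, 0.23 for Cd274, -2.16 for Pdcd1lg2, -1.61 for Icosl and 0.50 for Cd83, the value of Cd86 resting on 1 UMI in progenitor-like cells.

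Within Aire+ mTEC-like cells, WT-Control, WT-RANKL-Ab and Cd40-/- Control could be compared. The gate held different cells in WT-RANKL-Ab. Its median cell had 89.4 Aire+ mTEC marker UMIs per 10000, against 138.5 in WT-Control. CCL21+ mTEC markers were at 20.4 against 4.71 and cTEC markers at 17.9 against 8.02. The part of this in the ratios that follow was not tested. Cd86 was at 23.8, 51.0 (43.0-59.98) and 12.9 CPM (11.3-14.7), with log2 ratios to WT-Control of 1.10 (0.84 to 1.36) and -0.88 (-1.10 to -0.67). It was thus higher with the antibody and lower without Cd40, and the former was 1.76 in best-scoring classes, where each cell took the class with its highest standardized marker sum. Pdcd1lg2 was at 39.2, 90.7 (80.0-102) and 38.5 CPM, or 1.21 (1.01 to 1.40) and -0.03 (-0.16 to 0.10). Cd274 was at 34.3, 77.0 (67.1-87.9) and 49.2 CPM, or 1.17 (0.95 to 1.38) and 0.52 (0.39 to 0.65), and was above WT-Control in both.

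Cd80 was at 96.1, 71.7 and 56.2 CPM, or -0.42 (-0.63 to -0.22) and -0.78 (-0.88 to -0.67), but best-scoring classes gave 0.02 in WT-RANKL-Ab. Icosl was at 72.5, 58.7 and 70.5 CPM, or -0.30 (-0.54 to -0.08) and -0.04 (-0.14 to 0.06), and a mean of per-cell CPM gave 0.09 in WT-RANKL-Ab. Cd83 was at 24.0, 31.6 and 19.1 CPM, or 0.40 (0.07 to 0.71) and -0.33 (-0.52 to -0.15). In WT-RANKL-Ab the direction of Cd83 was the other way in best-scoring classes, at -0.44, and without cells with at least 2 thymocyte UMIs, at -0.19.

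In this class 3 of the 6 ligands (Cd86, Cd274 and Pdcd1lg2) were at least 2-fold higher with the antibody and 0 lower, where 18.1% of 18677 genes were past 2-fold either way. In Cd40-/- Control 0 of 6 were past 2-fold, against 2.13% of 19670 genes. The median of the 6 was 0.73 and -0.18, and that of all genes -0.12 and 0.11. The median Aire+ cell had 9268 UMIs in WT-Control, 2386 with the antibody and 7392 without Cd40. With cells of at least 2000 UMIs alone, all of these ratios kept their direction and stayed within the intervals given.

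At a fixed depth of 2000 UMIs per cell, Cd86 was detected in 4.21% (3.53-4.97), 9.51% (6.46-13.4) and 2.32% (1.69-3.10) of Aire+ cells and Pdcd1lg2 in 6.30%, 15.4% and 6.95%. Cd274 was detected in 7.32%, 14.1% and 8.47%, and Cd80 in 15.9%, 10.5% and 10.8%. The fixed depth left out 410, 256 and 377 shallower cells. Without thinning, Cd86 was detected in 11.2%, 13.5% and 6.02% and Cd80 in 45.5%, 21.6% and 30.4%. As a background, thymocyte-like barcodes, which should lack Cd80, had it in 0 of 96 cells of WT-RANKL-Ab, where a floor of 3 counts allows up to 3.12% and the exact interval 3.77%, and Cd274 in 2.08%. These 96 are the thymocyte-like barcodes with at least 2000 UMIs, and 122 shallower ones were left out.

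Macrophage markers summed to 875, 938 and 925 CPM in the Aire+ class and dendritic cell markers to 19.4, 18.3 and 23.0. Cd80, Cd86 and Cd83 are expressed by those cells too. The macrophage and dendritic cell sums differed little between the 3 libraries. Pan-haematopoietic markers did differ in the Aire+ class, at 2554, 2055 and 1681 CPM. They were lowest in Cd40-/- Control, where Cd80 and Cd86 were below WT-Control. In WT-RANKL-Ab they were also below WT-Control, while Cd86 was above it. Over all TEC-gated cells macrophage markers were at 456, 81.1, 394 and 6.97 CPM and dendritic cell markers at 11.6, 5.55, 11.5 and 3.40. Between 4 and 6 of the 6 dendritic cell markers were detected in a library. In the Aire+ cells of WT-RANKL-Ab, Clec9a and Siglech were at 0, and the part of these markers in the result was not tested.

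CCL21+ mTEC-like cells were numerous in all 4 libraries, with 3246, 3475, 1829 and 1051 cells. Cd274 was at 26.5 (24.4-28.7), 17.9 (16.2-19.6), 69.2 (64.5-74.2) and 28.9 CPM (25.5-32.7) in them. It was higher without Cd40, at a log2 ratio of 1.39 (1.23 to 1.54), lower with the antibody in wild type, at -0.57 (-0.75 to -0.39), and near WT-Control in the double loss, at 0.13 (-0.09 to 0.34). Pdcd1lg2 was at 34.5 (32.1-36.9), 8.90 (7.76-10.2), 82.1 (76.9-87.5) and 7.91 CPM (6.16-9.99). It too was higher without Cd40 and lower with the antibody, at 1.252 (1.11 to 1.39) without Cd40 and -1.95 (-2.18 to -1.74) with the antibody, but was far below WT-Control in the double loss, at -2.12 (-2.50 to -1.77). In Cd40-/- mice the antibody went with a ratio of -1.26 for Cd274 and -3.38 for Pdcd1lg2.

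Both subclasses showed these directions, apart from Cd274 in the double loss, which was above WT-Control in the subclass low in Mgp and Gpx3. In CCL21+ cells low in Mgp and Gpx3, Cd274 was at 24.2, 17.3, 74.2 and 37.5 CPM and Pdcd1lg2 at 28.2, 7.23, 67.0 and 3.02. In those high in them, Cd274 was at 27.9, 18.5, 66.6 and 25.9 CPM and Pdcd1lg2 at 38.3, 10.8, 89.9 and 9.64. At 2000 UMIs per cell, Pdcd1lg2 was detected in 5.70% (4.89-6.59), 1.45% (1.07-1.92), 12.9% (11.3-14.6) and 1.39% (0.761-2.32) of CCL21+ cells, and without thinning in 16.1%, 5.44%, 30.1% and 5.23%. Thymocyte-like barcodes had it in 0 of 96, 1 of 125 and 0 of 73 cells in the last 3 libraries.

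The CD28 ligands were low in CCL21+ cells. Cd80 was at 8.15, 1.80, 3.44 and 0.565 CPM, with ratios of -2.18, -1.25 and -3.85, from 190, 44, 39 and 5 UMIs, and these ratios moved with the gate (-3.10 and -2.28 for the first and last in best-scoring classes). Cd86 was at 1.24, 0.653, 0.441 and 0 CPM, from 29, 16, 5 and 0 UMIs. In the subclass high in Mgp and Gpx3, Cd86 did not differ between WT-RANKL-Ab and WT-Control beyond counting error, at 0.08 (-1.16 to 1.30). Macrophage markers summed to 54.4, 12.3, 41.9 and 4.97 CPM in the same CCL21+ cells, in the direction of Cd80. Pan-haematopoietic markers, at 169.8, 64.1, 60.5 and 17.7, also went in that direction. Dendritic cell markers did not, at 4.12, 6.41, 4.67 and 4.74 CPM. The median Aire+ cell of WT-Control also carried macrophage and pan-haematopoietic markers, at 2.06 and 19.1 UMIs per 10000. Whether mTECs or other cells made this RNA was not tested. Without cells with a dendritic cell, B cell or macrophage marker UMI, the ratios of Cd80 were -1.89, -0.97 and -3.08. Icosl was at 15.2, 9.47, 8.99 and 4.86 CPM, or -0.68, -0.75 and -1.64. The CCL21+ gate held cells with fewer Aire+ mTEC marker UMIs outside WT-Control. Per 10000 UMIs, the median cell low in Mgp and Gpx3 had 20.8, 13.9, 11.8 and 6.44 of them. The median cell high in Mgp and Gpx3 had 12.3, 6.68, 6.13 and 2.77. The part of this in the ratios of CCL21+ cells was not tested.

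Cd83 was at 2.70, 3.797, 4.23 and 10.3 CPM in CCL21+ cells, or 0.49, 0.65 and 1.93 (1.45 to 2.41). The last ratio was 1.30 without the shared barcodes, and the second was 1.72 in best-scoring classes. cTEC markers in the gate differed too. The median cell low in Mgp and Gpx3 had 1.74, 4.99, 3.42 and 8.42 cTEC marker UMIs per 10000. The median cell high in them had 1.99, 3.60, 3.69 and 4.50. Thymocyte markers summed to 10.6, 11.3, 13.7 and 21.1 CPM in CCL21+ cells. The part of this RNA in the Cd83 values was not tested. Past 2-fold with 1 CPM added were 2 ligands in WT-RANKL-Ab (Cd80 and Pdcd1lg2, both lower), where 5.46% of 14536 genes were past it either way. In Cd40-/- Control 3 were (Cd80 lower, Cd274 and Pdcd1lg2 higher), against 6.21% of 14244 genes, and in Cd40-/- RANKL-Ab 5 (4 lower, Cd83 higher), against 12% of 14025 genes. The medians of the ligands were -0.58, -0.07 and -1.31, and those of all genes 0.11, 0.10 and 0.09.

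**Figure D4:**
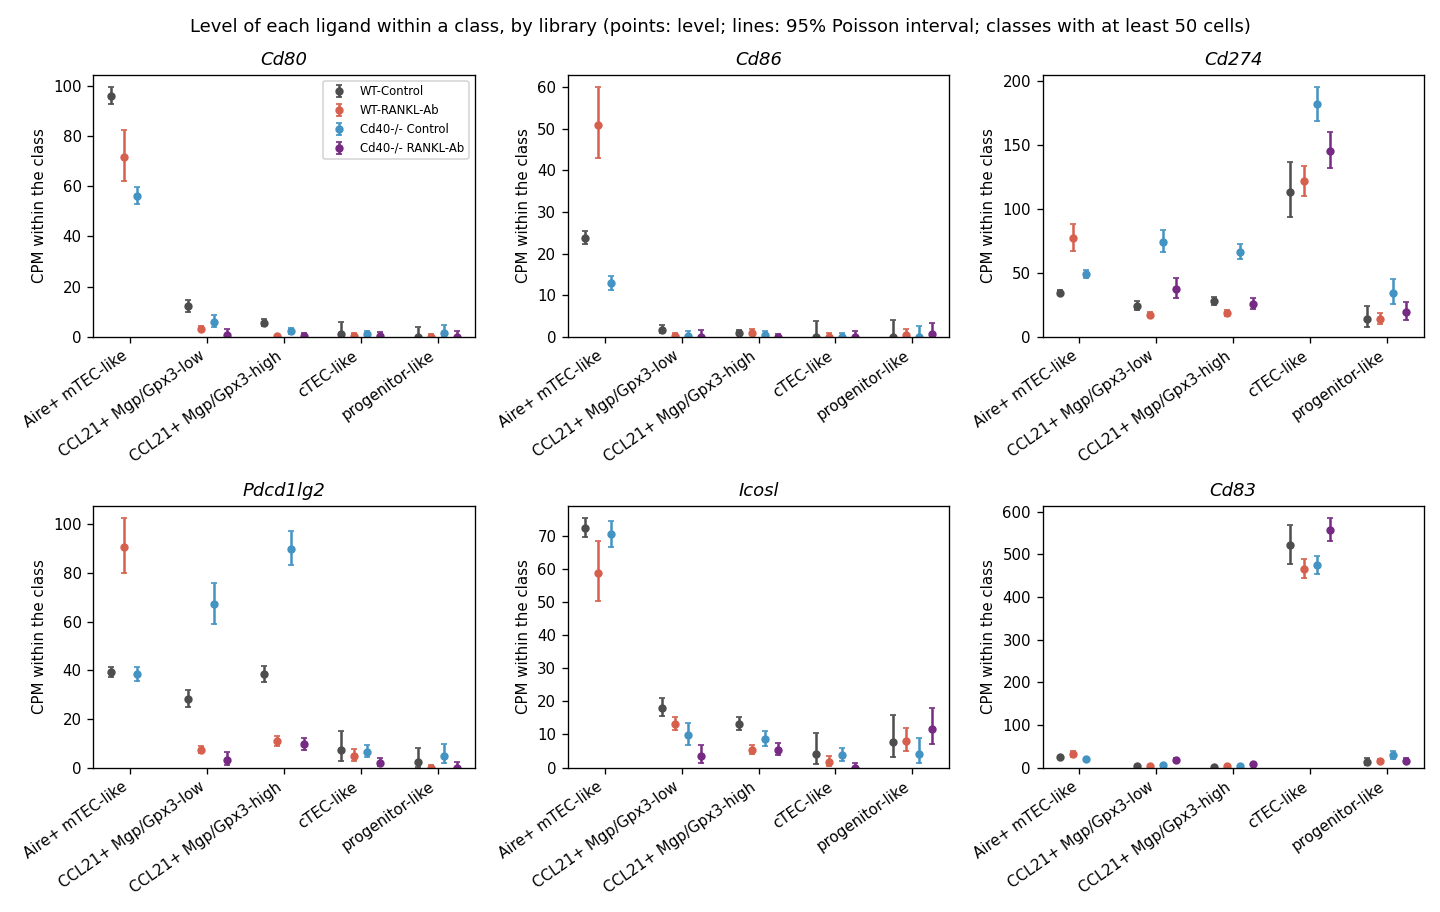
Level of each ligand within 5 classes by library, as points in CPM with exact Poisson 95% intervals, for classes with at least 50 cells. Cd86, Cd274 and Pdcd1lg2 are higher in the Aire+ cells of WT-RANKL-Ab, Cd274 and Pdcd1lg2 in the CCL21+ cells of Cd40-/- Control, and Cd83 stays between 465.7 and 557.0 CPM in cTEC-like cells.

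In cTEC-like cells the level of Cd83 was close in the 4 libraries. It was at 521.1 (477-569), 465.7 (444-488), 474.0 (453-496) and 557.0 CPM (530-585), with ratios of -0.16 (-0.31 to -0.02), -0.14 (-0.28 to 0.01) and 0.10 (-0.05 to 0.24). This depended on the gate: in best-scoring classes the ratios were 0.64, 0.83 and 1.13, all above WT-Control. At 2000 UMIs it was detected in 54.9%, 53.9%, 53.5% and 51.3% of cTEC-like cells, with overlapping intervals, and without thinning in 71.3%, 73.6%, 67.5% and 71.9%. Cd274 was at 113.5, 121.5, 181.9 (169-195.5) and 145.6 CPM (132-160) and higher than WT-Control in the Cd40-/- libraries, at 0.68 (0.39 to 0.98) and 0.36 (0.05 to 0.68), the latter 0.98 in best-scoring classes. Cd80 had 1, 1, 4 and 1 UMIs in these cells and Cd86 had 0 in all 4 libraries.

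Progenitor-like cells, gated on Pdpn, Ackr4, Dcn, Serpinf1 and Fst, were 123, 469, 262 and 210 cells and nearly lacked the CD28 ligands. Cd80 had 0, 0, 2 and 0 UMIs in them and Cd86 0, 1, 0 and 1. Cd274 was at 14.2, 13.9, 34.5 (25.7-45.4) and 19.1 CPM, again with its highest value in Cd40-/- Control, at 1.28 (0.38 to 2.28). Cd83 was at 12.0, 14.9, 29.1 and 15.1 CPM.

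In the early Aire lineage Icosl was at 124.7, 52.8 (41.7-65.9) and 126.6 CPM in the first 3 libraries, and in Ccl21a-low cycling cells at 114.5, 48.9 (29.5-76.4) and 105.4. Icosl was thus lower in both classes in WT-RANKL-Ab, and the intervals for WT-Control and Cd40-/- Control overlapped. The gates held different cells in WT-RANKL-Ab: the median early cell had 42.7 CCL21+ mTEC marker UMIs per 10000, against 6.62 in WT-Control, and 7590 UMIs against 13508. In cycling cells these values were 30.7 against 5.55 and 4187.5 against 17244, and Aire+ mTEC markers were at 15.8 against 49.4. The part of this in Icosl and in the Cd80 values that follow was not tested. Cd80 was at 54.5, 18.9 (12.6-27.4) and 37.5 CPM in early cells and at 40.8, 18.0 (7.25-37.1) and 24.5 in cycling cells, below WT-Control in each case, although the interval for cycling cells of WT-RANKL-Ab, from 7 UMIs, reached that of WT-Control (36.9-45.0). The double loss held 3 and 4 cells of these classes and is not compared.

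Within the Aire+ class, cells thinned to 2000 UMIs were grouped by their Aire UMIs, a gene that is also in the gate. In WT-Control, Icosl was at 56.2, 78.7, 100.97 and 114.4 CPM in cells with 0, 1, 2 and at least 3 Aire UMIs (1458, 794, 411 and 450 cells). In Cd40-/- Control it was at 37.8, 71.0, 86.1 and 143.1 CPM in 886, 465, 273 and 276 cells. Icosl was thus higher with more Aire in both libraries. Cd80 was at 90.9, 103.3, 91.2 and 108.9 CPM in WT-Control and Cd86 at 25.4, 26.4, 30.4 and 32.2, with overlapping intervals. Cd83 was at 14.1, 26.4, 36.5 and 37.8 CPM, and Cd274 at 44.2, 46.0, 29.2 and 34.4.

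**Figure D5:**
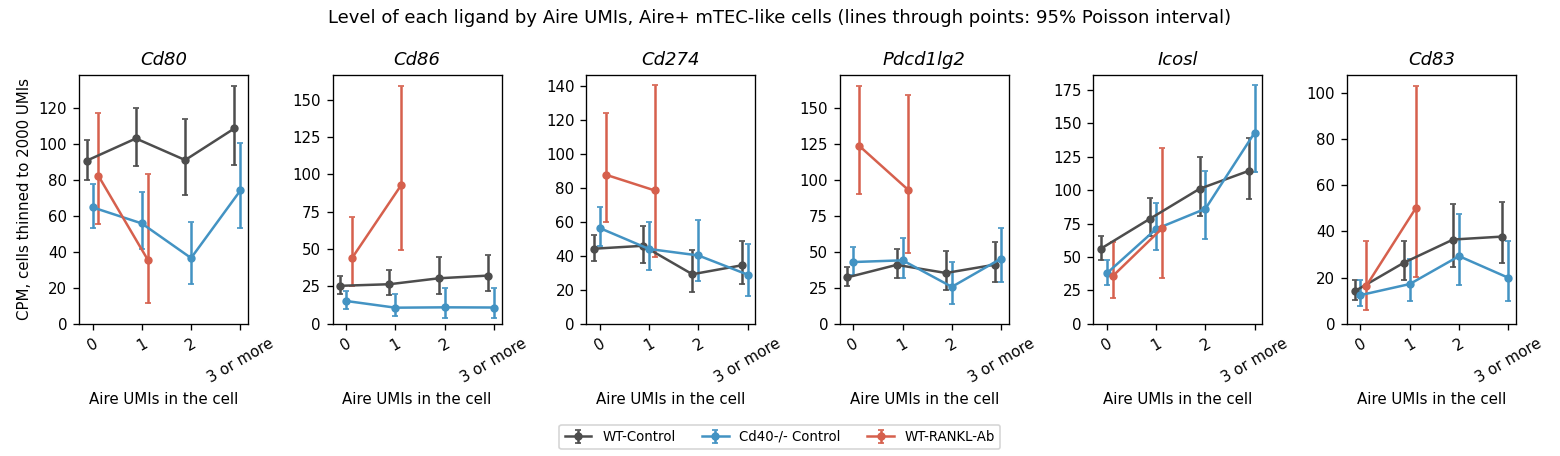
Level of each ligand in Aire+ mTEC-like cells thinned to 2000 UMIs, in CPM, against the Aire UMIs of the cell, with exact Poisson 95% intervals and WT-RANKL-Ab shown where a bin held at least 50 cells. Icosl is at 56.2 CPM in WT-Control cells without an Aire UMI and at 114.4 CPM in cells with at least 3, while Cd80 shows no such order.

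Detection of 2 ligands in the same thinned Aire+ cell was set against the product of their shares. In WT-Control, Cd86 and Pdcd1lg2 were found together in 23 of 3113 cells, where the product gave 8.25, a ratio of 2.79 (1.77-4.18). Cd274 and Pdcd1lg2, the 2 genes that lie next to each other, were together in 30 cells against 14.4, a ratio of 2.09 (1.41-2.98). This was not particular to neighbours. Pdcd1lg2 and Cd83, on different chromosomes, had a ratio of 2.10 (1.20-3.41). For Cd80 and Cd83 it was 1.56 (1.05-2.23). Cd80 and Icosl were together in 70 cells against 66.0, a ratio of 1.06. In Cd40-/- Control the ratio of Cd274 and Pdcd1lg2 was 1.16, from 13 cells. The counts are small, the cells differ in state within the class and the ratio is a description.

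Across 51 units of class and library with at least 50 cells, Pearson correlations of log2(CPM + 10) were taken over 16105 genes to name those most like each ligand. The units share libraries and the values are descriptions. The 3 most like genes were Gm14275, Ncf4 and Chst1 for Cd80 (0.97, 0.96 and 0.95), and Chrna5, Ccl22 and Slamf7 for Cd86 (0.92, 0.91 and 0.91). For Icosl they were Tvp23a, Tdh and Snx8 (0.94, 0.93 and 0.93), and for Cd83 Inmt, Atp7b and Gm48898 (0.98, 0.98 and 0.97). Pdcd1lg2 was most like H2-M2, Timp1 and Serpinb1a (0.81, 0.80 and 0.79). Cd274 was most like Plgrkt, the gene that starts 65 bases from it, together with Fxyd2 and Mreg (0.86, 0.86 and 0.85). Among the ligands themselves the correlation was 0.77 for Cd80 with Icosl, 0.77 for Cd274 with Cd83, 0.68 for Cd80 with Cd86 and -0.37 for Cd83 with Icosl.

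A list of 18 other costimulatory and coinhibitory ligands was measured in the same cells. With 1 CPM added, 2 were at least 2-fold lower with the antibody alone and 0 without Cd40 alone. In these comparisons 0 were 2-fold higher, and in the double loss 2 of 17 were lower and 2 higher. All genes were lower in 14.3%, 1.05% and 19.3% and higher in 4.62%, 2.46% and 9.26%, as given above, so these counts do not set the list apart. Its medians were -0.11, 0.10 and -0.16, beside -0.02, 0.06 and -0.08 for all genes. Cd70, the ligand of CD27, was at 88.7, 32.7, 74.5 and 1.56 CPM over all TEC-gated cells, and Tnfsf9, the 4-1BB ligand, at 16.3, 2.58, 8.50 and 0.692. Cd200, an inhibitory ligand, was at 32.3, 44.0, 53.5 and 103.3 CPM, and Vsir, which encodes VISTA, at 5.11, 7.68, 6.23 and 14.3. Cd70 and Tnfsf9 had the order of Cd80 and Cd86 over the libraries, and Cd200 that of Cd83.

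The molecules that CD83 acts on were measured too. March8, the ubiquitin ligase, was at 18.9, 44.8, 30.5 and 52.7 CPM over all TEC-gated cells, with ratios of 1.24 (1.15 to 1.34), 0.69 (0.59 to 0.78) and 1.48 (1.36 to 1.59). H2-Aa, an MHC class II chain, was at 7318, 4648, 6493 and 3450 CPM, and Cd74, the invariant chain, at 21636, 14113, 16770 and 10426. In cTEC-like cells alone, March8 was at 41.3, 48.2, 53.7 and 49.5 CPM, with intervals of all 3 ratios that included 0.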

How the data were processed

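Droplet-based single-cell RNA sequencing was done on 4 libraries, 1 per condition. The authors trimmed reads with Fastp, aligned them to mm10 and deposited UMI counts per gene and barcode without normalization. The matrix headers name Cell Ranger 5.0.1 and the submitters' processing notes 5.1. Cells with at least 200 genes and under 25% mitochondrial UMIs were kept and assigned to 19 classes by ordered gates on marker UMIs per 10000 UMIs (at least 40 for Aire+ mTEC-like, 120 for CCL21+ and cTEC-like, 15 for progenitor-like and early Aire-lineage-like cells), with a minimum number of different markers. Within 1.25-fold of those limits lay 7.43%, 4.17%, 1.91%, 4.00% and 8.06% of 28055 cells. The limits were set, and tightened once, after marker sums and the ligands' levels per class had been seen, and the genes and lists were chosen with earlier results of these data known. No doublet caller was run, and the gate for thymocyte-cTEC complexes holds barcodes with RNA of both cells. Ungated barcodes (7.10%, 10.5%, 12.9% and 7.01%) stayed out of the TEC-gated sums. Counts were summed per class. Levels have exact Poisson, ratios exact conditional binomial and shares Clopper-Pearson 95% intervals. A ratio against 0 counts was bounded with a floor of 3 counts per library. Genes entered the background with at least 20 UMIs over the 2 libraries compared, and were counted past 2-fold with 1 CPM added. The interval calculation was checked on simulated counts. All 6 ligands are named, with the 3 genes most like each (among genes with at least 200 UMIs) and the other ligands past 2-fold in Cd40-/- RANKL-Ab against WT-Control. Intervals were computed with scipy 1.17.1 and tables with pandas 2.3.3 and numpy 2.4.6 in Python 3.11.15, figures were drawn with matplotlib 3.10.9, and TMM factors came from edgeR 4.0.16 in R 4.3.3. Alternatives were the mitochondrial limit, the gate limits, best-scoring classes, TMM factors, a mean of per-cell CPM, other added CPM and UMI minimums. Cells with thymocyte, dendritic cell, B cell or macrophage marker UMIs, called RNA of those cells for short, were also left out. The summed level of the B cell markers is not reported here. Leaving out shared barcodes or thymocyte-cTEC complexes was chosen after seeing the data.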

Additional observations from a re-analysis of the deposited data

Results flagged for a closer look

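In cTEC-like cells the ratio of Cd83 with the antibody to Cd83 with control IgG was -0.16 on the log2 scale in wild-type mice and 0.23 in Cd40-/- mice, 2 values of opposite sign with a difference of -0.40. There was 1 library on each side, so the difference between genotypes was not tested. The wild-type value was not below 0 under 3 alternatives, at 0.64 in best-scoring classes, 0.012 without cells with at least 2 thymocyte UMIs and 0.0028 with the mean of per-cell CPM.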

How the results depend on the processing

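No paired analysis was possible because each condition was 1 library with no replicate, and for the same reason no library could be left out. Of the medians and counts over the 6 ligands, 98 values under the alternatives stayed within the interval of the reported value (counts within 1.5-fold) and 14 did not, and of single-gene ratios 565 did, 117 did not and 7 changed sign, where a change of sign was counted for ratios with an interval that excluded 0. Ratios with an interval that included 0 could also change sign, as Cd83 in cTEC-like cells of Cd40-/- Control did (-0.14, and 0.83 in best-scoring classes). Here medians are without added CPM. In WT-RANKL-Ab the sign changed with best-scoring classes for Cd80 and Cd83 in Aire+ cells (0.017 and -0.44) and Cd83 in cTEC-like cells (0.64), without cells with at least 2 thymocyte UMIs for Cd83 in Aire+ and cTEC-like cells (-0.19 and 0.012), and with the mean of per-cell CPM for Cd83 in cTEC-like cells (0.0028) and Icosl in Aire+ cells (0.088). Over all TEC-gated cells the median in Cd40-/- Control, reported as 0.04, was -0.049 with limits doubled, -0.12 with TMM factors, 0.17 without cells with at least 2 thymocyte UMIs and 0.16 without thymocyte-cTEC complexes. In Cd40-/- RANKL-Ab it was -2.76 with the mean of per-cell CPM and -2.79 without cells with dendritic cell, B cell or macrophage RNA (main value -3.13), and in WT-RANKL-Ab -1.67 without the latter (main value -1.25). In Aire+ cells it was 1.06 with limits halved in WT-RANKL-Ab (main value 0.75), and -0.34 with best-scoring classes and -0.33 with TMM factors in Cd40-/- Control (main value -0.19). In CCL21+ cells it was 0.58 with best-scoring classes in Cd40-/- Control (main value -0.05), and -1.02 with limits doubled, -0.75 with best-scoring classes and -1.06 without cells with dendritic cell, B cell or macrophage RNA in Cd40-/- RANKL-Ab (main value -1.76). The cause of these differences was not tested. Depth limits Cd80 and Cd86 in the double loss, at 10 and 1 UMIs over all TEC-gated cells.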

Other observations

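The receptors of these ligands were low in TEC-gated cells, with Ctla4, Pdcd1 and Icos at 0.155 to 1.498 CPM. Cd28, the activating receptor of CD80 and CD86, was higher. It was at 3.51, 10.97, 21.0 and 29.4 CPM over all TEC-gated cells, first WT-Control, then WT-RANKL-Ab, then Cd40-/- Control and last Cd40-/- RANKL-Ab. In CCL21+ mTEC-like cells Cd28 was at 6.99, 5.10, 26.1 and 12.7 CPM, with a log2 ratio of 1.90 (1.62 to 2.18) in Cd40-/- Control against WT-Control, and the 10 thymocyte markers summed to 10.6, 11.3, 13.7 and 21.1 CPM in the same cells. The part of thymocyte RNA in this value was not tested.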
